A study of Mus musculus with 34 samples.

Results

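Keratin mRNA was examined in kidneys of mice with polycystic kidney disease for 8 genes chosen by name, *Krt7*, *Krt8*, *Krt18*, *Krt19*, *Krt20*, *Krt23*, *Krt80* and *Krt5*, out of the 23509 genes in the deposited tables. All 8 passed the filter on low counts. The rule lists them by symbol and uses no measured value, but the list was drawn up with earlier results of these data known. The libraries came from whole kidneys of 34 C57BL6 mice harvested on postnatal day 28 (P28). *Pkd2*-KO mice received PBS (PBS group, n = 11) or RGLS4326 at 20 mg per kg (RGLS4326 group, n = 11) under the skin on P10, P11, P12 and P19, and untreated wildtype mice of the same strain and age (UNT group, n = 12) were the controls. The *Pkd2*-KO mice, whose genotype the labels spell "Pdk2KO", carry floxed *Pkd2* alleles and a Cre driven by the *Pkhd1* promoter, which is active in kidney tubules and collecting ducts, so other kidney cells keep the gene. RGLS4326 is a short oligonucleotide complementary to the seed of the microRNA miR-17. The comparison of RGLS4326 with PBS asks how this oligonucleotide changes cystic kidneys. That of PBS with UNT asks how the cystic kidney differs from the normal one. No group given a control oligonucleotide is among the 34 libraries. Effects of blocking miR-17 and of an oligonucleotide as such therefore cannot be told apart.

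Keratins are the intermediate filament proteins of epithelia. A filament is built from pairs of 1 type I and 1 type II protein, so the balance of both types matters for how much filament can form, and an unpaired keratin is degraded. *Krt8* (type II) and *Krt18* (type I) form the basic pair of simple epithelia such as kidney tubules. *Krt7* (type II) and *Krt19* (type I) mark ducts and collecting ducts, *Krt20* (type I) is known from intestinal and urothelial surface cells and from injured tubules, *Krt23* (type I) and *Krt80* (type II) are less studied epithelial keratins, and *Krt5* (type II) belongs to the basal layer of stratified epithelia and urothelium. *Krt5* is therefore not a simple-epithelial keratin by its usual role.

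Reads in genes per library ran from 20823992 to 54981992 in UNT, 24226637 to 48891459 in PBS and 17603122 to 35362373 in RGLS4326 mice. Depth thus differed between the groups, with means of 40718734, 34284165 and 26415846. *Pkd2* was at 219.6 to 337.7 CPM (read counts relative to library size, scaled for library composition by TMM factors) in UNT, at 98.03 to 214.5 in PBS and at 170.0 to 236.9 in RGLS4326 mice, so every PBS mouse was below every UNT mouse. The share of reads in no gene was 12.9% to 14.9% in UNT, 6.08% to 11.0% in PBS and 5.82% to 14.6% in RGLS4326 libraries. The numbering in the names of the deposited tables restarts and so splits the libraries into 3 sets, each with 3 or 4 mice of every group, and nothing in the labels says what the sets are. Proximal tubule markers were present in all groups and summed to 8205 to 11154 CPM in UNT, 662.3 to 2387 in PBS and 1587 to 2725 in RGLS4326 kidneys (5 genes), in which *Slc34a1* and *Lrp2* were the most abundant. In whole tissue, fewer cells of a type and less RNA per cell cannot be told apart.

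The genes lie in the 2 keratin clusters of the mouse genome (GRCm38). The type II genes are on chromosome 15, where *Krt80* (101347444 to 101370162, minus strand), *Krt7* (101411043 to 101430313, plus strand), *Krt5* (101707070 to 101712898, minus strand) and *Krt8* (101996698 to 102004482, minus strand) follow each other. *Krt18* (102028180 to 102032027, plus strand) is the type I gene that lies outside the type I cluster, 23697 bases from its partner *Krt8* and on the opposite strand. The other type I genes are on chromosome 11 on the minus strand, *Krt20* at 99428403 to 99438150, *Krt23* at 99477974 to 99493137 and *Krt19* at 100140810 to 100148665. Exons of *Krt8*, *Krt7*, *Krt80* and *Krt5* overlap an annotated RNA gene on the opposite strand, and since the strand setting of the counting is not given in the sources used here, their counts may hold reads of that neighbour.

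RefSeq promoters (GRCm38.p6, from 250 bases before to 50 bases after the start) were matched for 6 of the 8 genes, with no entry for *Krt19* or *Krt80*. The promoters of the *Krt8* and *Krt18* pair, whose log2 fold changes in PBS vs UNT differed, and of *Krt20*, whose treatment change was near 0, are shown with matches in capitals. Both strands were searched for TATAAA, for TGANTCA (the AP-1 letters), for GGAATG (the TEAD letters) and for AACCNGGTT (the GRHL letters).
Krt8, chr15:102004293-102004592, minus strand: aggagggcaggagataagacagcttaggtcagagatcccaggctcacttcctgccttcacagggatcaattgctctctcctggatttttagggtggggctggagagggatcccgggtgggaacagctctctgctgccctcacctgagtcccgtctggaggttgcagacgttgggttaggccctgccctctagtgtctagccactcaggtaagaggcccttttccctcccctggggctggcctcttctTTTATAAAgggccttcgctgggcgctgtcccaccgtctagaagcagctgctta
Krt18, chr15:102027966-102028265, plus strand: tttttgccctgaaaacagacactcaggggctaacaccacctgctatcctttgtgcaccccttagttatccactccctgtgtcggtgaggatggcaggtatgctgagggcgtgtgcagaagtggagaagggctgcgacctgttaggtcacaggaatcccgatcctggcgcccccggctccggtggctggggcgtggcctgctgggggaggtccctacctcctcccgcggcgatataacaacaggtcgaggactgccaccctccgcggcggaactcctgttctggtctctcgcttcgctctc
Krt20, chr11:99438104-99438403, minus strand: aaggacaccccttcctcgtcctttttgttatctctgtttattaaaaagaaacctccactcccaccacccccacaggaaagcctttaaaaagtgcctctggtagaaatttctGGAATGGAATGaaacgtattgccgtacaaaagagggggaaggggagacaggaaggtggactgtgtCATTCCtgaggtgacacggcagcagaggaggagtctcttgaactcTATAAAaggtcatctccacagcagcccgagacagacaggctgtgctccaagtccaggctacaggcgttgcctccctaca
*Krt20* held 3 matches to GGAATG, starting at positions -139, -134 and -74 from the RefSeq start, of which the first 2 overlap by 1 base, and 1 TATAAA match at -29. *Krt8* held 2 TATAAA matches on opposite strands, at -3 and -1, that overlap in the capitals shown. *Krt18*, *Krt7*, *Krt23* and *Krt5* held none of the 4 motifs in this window, and *Krt20* was the only 1 of the 6 with GGAATG. Among 32851 RefSeq promoters of the same length, TATAAA was found in 13.6%, TGANTCA in 7.81%, GGAATG in 14.7% and AACCNGGTT in 0.271%, so these matches are a description of the letters and not of binding.

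The microRNA addressed by the drug is shown with its seed, bases 2 to 8, in capitals.
mmu-miR-17-5p, chr14:115043684-115043706: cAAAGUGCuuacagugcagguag
None of the 8 keratins (0 of 8) held a match to this seed (GCACTTT or CACTTTA) in the 3′UTR of its principal transcript. These 3′UTRs were 66 bases (*Krt18*) to 2648 bases (*Krt7*) long, and 2794 of 14087 tested genes with an annotated 3′UTR (19.8%) held a match.

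Every keratin of the list was higher in cystic than in normal kidneys. All 8 were called higher in PBS than in UNT mice (quasi-likelihood test of edgeR, p adjusted over 15644 genes by the Benjamini-Hochberg method and under 0.05), against 43.1% of all tested genes called higher and 38.9% called lower. The median log2 fold change was 2.76 over the 8 keratins and 0.04 over all tested genes. For all 8, every PBS mouse was above every UNT mouse, which held for 22.7% of tested genes. When the no-gene share of reads was a term of the fit, a share that does not overlap between UNT and PBS libraries, all 8 stayed called with smaller log2 fold changes, from 3.58 (*Krt19*) and 3.54 (*Krt20*) down to 1.10 (*Krt5*). The summed level of the 8 rose from 312.6 to 479.2 CPM in UNT mice to 1511 to 3478 CPM in PBS mice. The plot of levels by mouse shows these gaps for each gene. Log2 fold changes are given ± their SE.

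**Figure D1:**
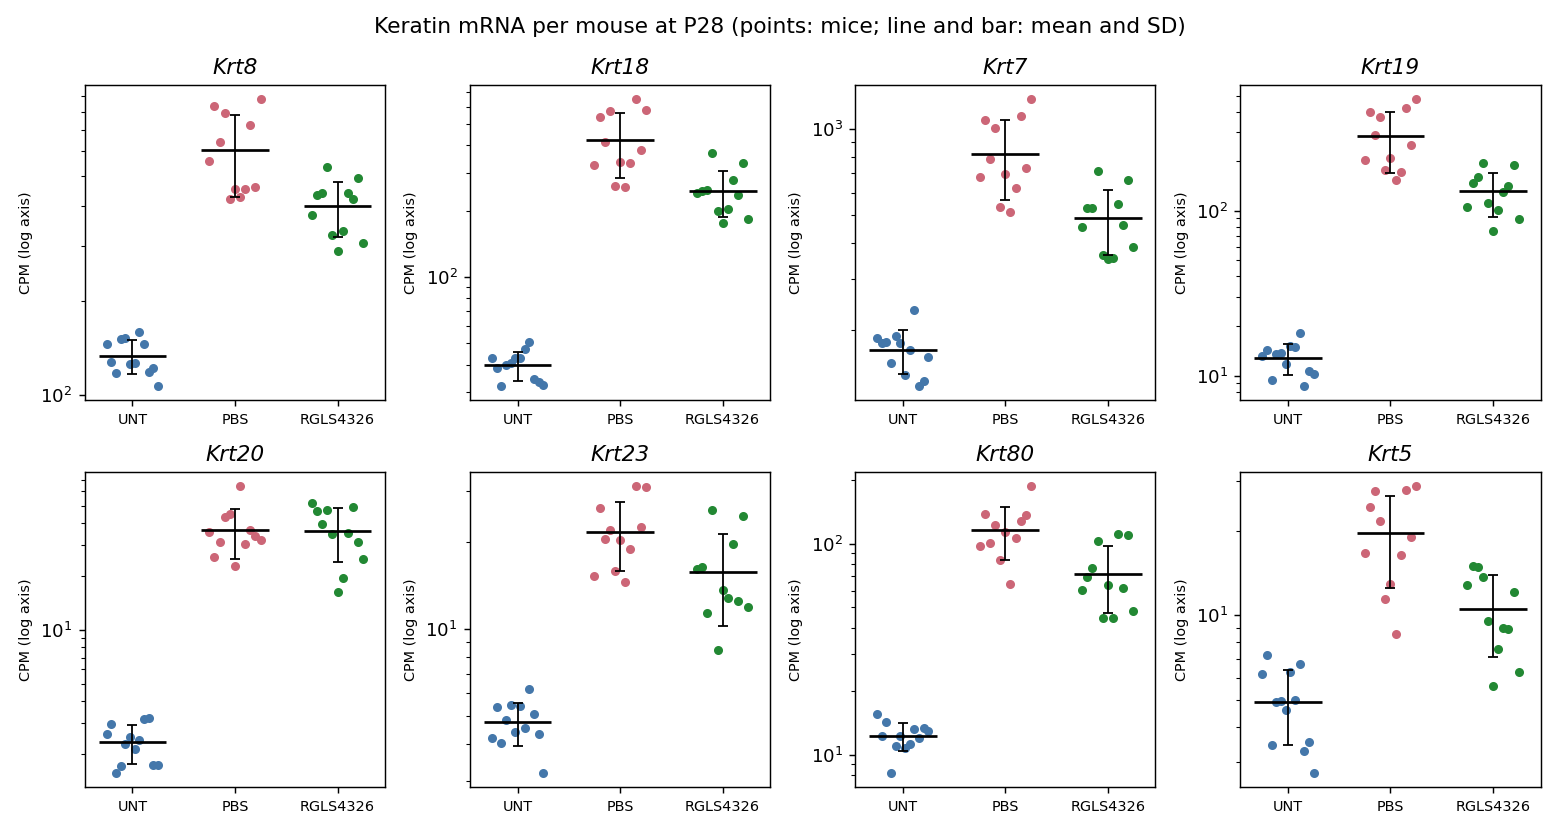
CPM (log axis) of each keratin in every mouse of the UNT (n = 12), PBS (n = 11) and RGLS4326 (n = 11) groups, with the mean and SD in black. All PBS points lie above all UNT points in the 8 panels, while the RGLS4326 and PBS points overlap in all 8. The RGLS4326 mean is lower in all 8, with nearly equal means of 36.5 (PBS) and 36.1 CPM (RGLS4326) for *Krt20*.

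In both simple epithelial pairs, *Krt8* with *Krt18* and *Krt7* with *Krt19*, the type I gene had the larger log2 fold change. *Krt19* was at 8.67 CPM in the lowest, 13.4 in the median and 18.2 in the highest UNT mouse, and at 154.1, 251.5 and 475.6 CPM in PBS mice. The lowest PBS mouse thus stood far above the highest UNT mouse, with a log2 fold change of 4.47 ± 0.20 (adjusted p = 1.873e-20 in edgeR). *Krt18* was at 32.0, 40.1 and 50.9 CPM in the lowest, median and highest UNT mouse and at 258.9, 378.8 and 647.5 CPM in PBS mice. Its groups were again apart, with a log2 fold change of 3.41 ± 0.15 (adjusted p = 6.007e-21 in edgeR).

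Their type II partners started from a higher level and had smaller log2 fold changes. *Krt8* was at 107.2, 127.1 and 159.4 CPM (lowest, median, highest) among UNT and at 423.7, 558.8 and 878.9 CPM in PBS mice, a log2 fold change of 2.18 ± 0.13 (adjusted p = 1.166e-17 in edgeR). *Krt7* was at 128.0, 175.2 and 235.3 CPM among UNT and at 515.6, 733.1 and 1267 CPM in PBS mice, a log2 fold change of 2.27 ± 0.15 (adjusted p = 2.045e-16 in edgeR). Neither gene overlapped between the groups.

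Among the less abundant keratins, *Krt20* had the largest log2 fold change, close to that of *Krt19* and above it in library set 2 alone (4.196 against 3.996). *Krt20* was at 1.58, 2.35 and 3.22 CPM (lowest, median, highest) among UNT and at 23.0, 33.7 and 64.4 CPM in PBS mice, a log2 fold change of 3.95 ± 0.19 (adjusted p = 9.77e-20 in edgeR). The lowest UNT library still held 31 *Krt20* reads. *Krt80* was at 8.22, 12.3 and 15.6 CPM among UNT and at 64.5, 113.4 and 188.0 CPM in PBS mice, a log2 fold change of 3.25 ± 0.17 (adjusted p = 3.868e-19 in edgeR).

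*Krt23* and *Krt5* had smaller log2 fold changes, that of *Krt23* close to those of *Krt8* and *Krt7* and that of *Krt5* the lowest of the 8. *Krt23* was at 3.20, 4.71 and 6.22 CPM among UNT and at 14.5, 20.5 and 31.2 CPM in PBS mice (log2 fold change 2.18 ± 0.16, adjusted p = 5.028e-15 in edgeR). *Krt5* was at 2.75, 4.92 and 7.22 CPM among UNT and at 8.61, 19.0 and 28.9 CPM in PBS mice (log2 fold change 1.99 ± 0.20, adjusted p = 2.559e-11 in edgeR). The gap between the groups was narrowest for *Krt5*.

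With these unequal log2 fold changes, the balance of type II to type I mRNA differed between UNT and PBS mice. To compare genes, levels were divided by the length of the principal transcript (CPM per kilobase). The log2 ratio of the *Krt8* to the *Krt18* level was 1.30 ± 0.14 (SD, n = 12; 1.07 to 1.48) in UNT mice, a *Krt8* level 2.47 times that of *Krt18*. In PBS mice it was 0.09 ± 0.19 (n = 11; -0.27 to 0.33), a ratio of 1.06, and in RGLS4326 mice 0.26 ± 0.10 (n = 11; 0.10 to 0.39), a ratio of 1.19. No UNT mouse overlapped either cystic group, while the PBS and RGLS4326 ranges overlapped. The sum of the 4 type II over the sum of the 4 type I levels gave the same picture, with log2 ratios of 1.54 ± 0.14 (1.26 to 1.81) in UNT, 0.15 ± 0.12 (-0.11 to 0.35) in PBS and 0.32 ± 0.08 (0.21 to 0.45) in RGLS4326 mice. These ratios are built from the list itself and were not tested. Dividing by coding length instead raised every type II to type I ratio and left the direction between UNT and both cystic groups as it was. In UNT mice the mean log2 ratio went from 2.37 to 3.56 for *Krt7* over *Krt19* and from 1.30 to 1.54 for *Krt8* over *Krt18*. The principal transcript of *Krt7* has 4094 bases but a coding length of 1371.

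**Figure D2:**
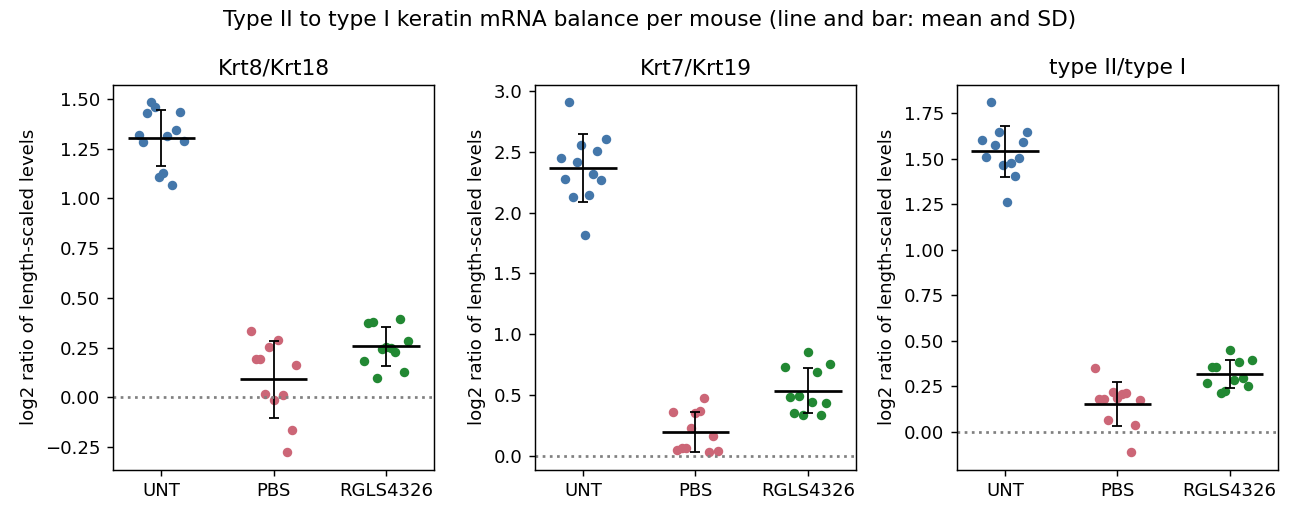
Log2 ratio of length-scaled levels in each mouse for *Krt8* over *Krt18*, for *Krt7* over *Krt19* and for the summed type II over the summed type I keratins, with the mean and SD in black and equal levels at the dotted line. The *Krt8* over *Krt18* ratio falls from a mean of 1.30 in UNT to 0.09 in PBS and stands at 0.26 in RGLS4326 mice.

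The order of the levels shifted with the balance. In UNT kidneys, the level per kilobase was highest for *Krt8* (68.0 ± 8.47 CPM per kilobase), then *Krt7* (41.6 ± 7.27), *Krt18* (27.6 ± 4.2), *Krt19* (8.13 ± 1.76), *Krt80* (3.99 ± 0.615), *Krt23* (3.05 ± 0.518), *Krt5* (2.23 ± 0.665) and *Krt20* (1.22 ± 0.301). In PBS kidneys, *Krt8* (309.3 ± 90.1 CPM per kilobase) and *Krt18* (293.6 ± 95.9) did not differ beyond their spread, since their ratio within a mouse lay on both sides of equal levels. *Krt7* (200.2 ± 61.7) and *Krt19* (179.9 ± 72.2) were close, with *Krt7* higher in every PBS mouse by 0.03 to 0.47 on the log2 scale. The place of *Krt7* depends on the length used, since per coding length it was the highest of the 8 in every group. *Krt20* moved from the last to the sixth place (18.9 ± 5.87 CPM per kilobase in PBS), above *Krt23* (13.8 ± 3.72) and *Krt5* (8.93 ± 3.22). As a share of the 8 levels per kilobase, *Krt19* went from 5.18% ± 0.685 in UNT to 16.5% ± 1.76 in PBS mice and *Krt8* from 43.7% ± 2.77 to 29.3% ± 2.33.

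With RGLS4326, 7 of the 8 keratins were lower in cystic kidneys, and *Krt20* was not called. *Krt19*, *Krt5*, *Krt18*, *Krt7*, *Krt80*, *Krt8* and *Krt23* were called lower in RGLS4326 than in PBS mice, against 18.4% of all tested genes called lower and 15.2% called higher. The median log2 fold change was -0.72 over the 8 keratins and 0.00 over all tested genes. When the share of reads in no gene entered the fit as a covariate, 6 of the 7 calls were lost and *Krt19* alone stayed called, with estimates such as -0.35 for *Krt8* and -0.20 for *Krt23*. The summed level was 994.2 to 1999 CPM in RGLS4326 and 1511 to 3478 CPM in PBS mice.

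*Krt19* had the largest estimated fall of the 8 over all libraries, though *Krt5* had a larger one in library set 3 alone (-1.34 against -1.26). *Krt19* was at 75.3, 130.7 and 194.5 CPM in the lowest, median and highest RGLS4326 mouse, so that 8 of 11 were below the lowest PBS mouse (154.1 CPM), a log2 fold change of -1.11 ± 0.18 (adjusted p = 0.0004087 in edgeR). *Krt18* was at 177.4, 242.7 and 366.8 CPM, also with 8 of 11 mice below the lowest PBS mouse, a log2 fold change of -0.77 ± 0.14 (adjusted p = 0.001169 in edgeR). Both groups still overlapped for each of these genes.

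The type II partners *Krt7* and *Krt8* had smaller estimates than *Krt19*, a difference that was not tested. *Krt7* was at 353.6, 462.8 and 712.1 CPM in RGLS4326 mice, with a log2 fold change of -0.75 ± 0.15 (adjusted p = 0.001428 in edgeR). *Krt8* was at 288.6, 423.9 and 535.1 CPM, with a log2 fold change of -0.60 ± 0.13 (adjusted p = 0.002334 in edgeR). All 11 RGLS4326 mice were below the PBS mean for both genes, and 6 and 5 of them, respectively, below the lowest PBS mouse.

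*Krt80* was at 44.5, 63.9 and 111.1 CPM in RGLS4326 mice (log2 fold change -0.69 ± 0.16, adjusted p = 0.003356 in edgeR) and *Krt5* at 5.59, 9.56 and 15 CPM (log2 fold change -0.90 ± 0.20, adjusted p = 0.002937 in edgeR). All 11 mice were again below the PBS mean for both. *Krt23* was at 8.48, 13.6 and 25.7 CPM, with 9 of 11 mice below the PBS mean, a log2 fold change of -0.46 ± 0.15 (adjusted p = 0.02281 in edgeR). This was the weakest of the 7 calls, and it was lost without PBS replicate 9 (-0.39, edgeR adjusted p = 0.0542) and without PBS replicate 11 (-0.40, edgeR adjusted p = 0.0535).

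*Krt20* stood at 16.3, 35.2 and 51.8 CPM in the lowest, median and highest RGLS4326 mouse, next to 23.0, 33.7 and 64.4 CPM in PBS mice. The groups overlapped almost fully, with 6 of 11 RGLS4326 mice below the PBS mean. The log2 fold change was -0.02 ± 0.17 (adjusted p = 0.9505 in edgeR), and the interval of 1.96 SE on either side ran from -0.35 to 0.32, so changes of up to that size could not be told from none. This interval overlaps that of *Krt23* (-0.76 to -0.16) and meets that of *Krt8* (-0.85 to -0.35).

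The log2 ratio of *Krt20* to each other keratin per mouse was compared between RGLS4326 and PBS mice as a description, since it was chosen after the values were seen. The mean difference was 1.02 (SE 0.28) for *Krt19*, 0.83 (SE 0.28) for *Krt5*, 0.69 (SE 0.25) for *Krt18* and 0.68 (SE 0.25) for *Krt7*, each with 11 of 11 RGLS4326 mice above the PBS mean. It was 0.67 (SE 0.29) for *Krt80* and 0.52 (SE 0.23) for *Krt8*, each with 9 of 11 mice above the PBS mean, and 0.44 (SE 0.28) for *Krt23*, with 8 of 11. Permutation tests of these ratios are not used as support, and that for *Krt23* did not pass (permutation p = 0.131). The library sets disagreed. Within sets 1, 2 and 3, the difference was 1.54, 0.30 and 1.24 for *Krt19* and 1.21, -0.08 and 0.93 for *Krt18*. For *Krt8*, *Krt23* and *Krt5*, the set 2 difference was -0.20, -0.23 and -0.08.

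**Figure D3:**
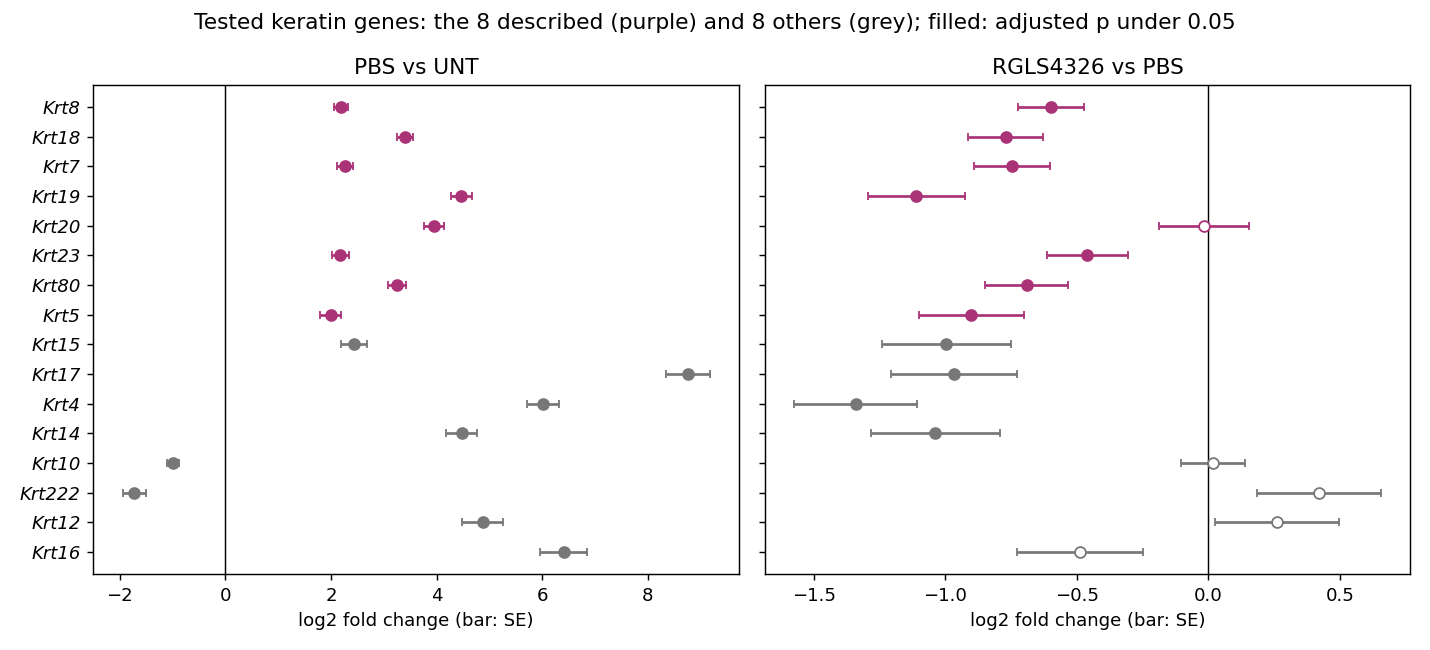
Log2 fold change with its SE for the 16 tested keratin genes in PBS vs UNT (left) and RGLS4326 vs PBS (right), the 8 described genes in purple and 8 other keratins in grey, filled where the adjusted p is under 0.05. On the right, 7 purple points lie between -1.11 and -0.46 and *Krt20* lies at -0.02.

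The direction of the treatment change was the same in all 3 library sets for the 7 lowered keratins. Within sets 1, 2 and 3, the log2 fold change was -0.96, -1.23 and -1.26 for *Krt19*, -0.69, -0.84 and -1.34 for *Krt5*, -0.62, -0.86 and -0.91 for *Krt18*, and -0.60, -0.72 and -0.60 for *Krt8*. Fitted alone, with 3 or 4 mice a group, set 2 called 7 keratins and 4081 of all genes, while sets 1 and 3 called 0 keratins and 32 and 0 of all genes. *Krt20* went different ways, at 0.59 in set 1, -0.89 in set 2 and 0.09 in set 3. In set 2, *Krt20* was at 23.0 to 64.4 CPM in the 4 PBS mice and at 16.3 to 34.6 CPM in the 3 RGLS4326 mice, while in set 1 the 4 RGLS4326 mice (39.6 to 51.8 CPM) were all above the 3 PBS mice (25.8 to 35.7 CPM). The interaction of treatment and set had p = 0.00315 for *Krt20* in the edgeR fit, which did not pass after adjustment over all genes (adjusted p = 0.869).

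**Figure D4:**
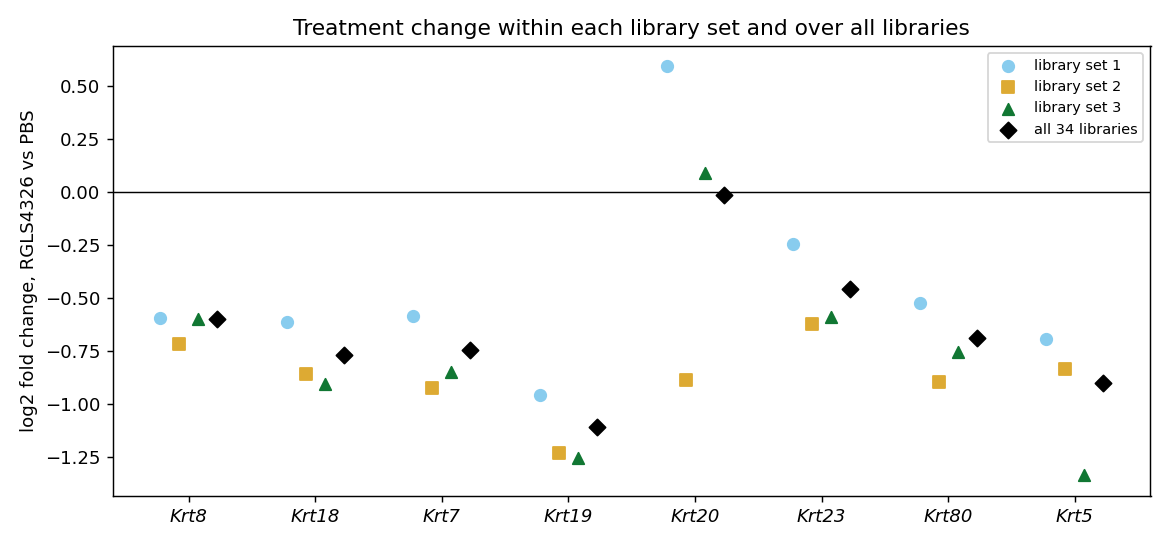
Log2 fold change of RGLS4326 vs PBS for each keratin, fitted in each of the 3 library sets alone (circle, square, triangle) and over all 34 libraries (black diamond). For 7 keratins all points lie below 0, and for *Krt20* they spread from -0.89 to 0.59.

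The share of reads in no gene moved with these levels. It averaged 14.1% in the 3 RGLS4326 libraries of set 2 against 9.14% in the 4 PBS libraries of that set, 8.29% against 7.60% in set 1 and 10.4% against 7.59% in set 3. After removal of group means, its Pearson r with the keratins over the 34 mice ran from -0.69 (*Krt7*) to -0.40 (*Krt20*), values that share library and depth. With this share as a covariate, *Krt19* was at -0.78, the other 6 lowered keratins ranged from -0.57 (*Krt5*) to -0.20 (*Krt23*), and 143 genes were called in all. Its part in the treatment difference was not tested further.

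Treated kidneys remained far from normal. All 8 keratins were higher in RGLS4326 than in UNT mice, against 40.8% of all tested genes called higher and 36.9% called lower, a comparison that shares its samples with the other 2. The log2 fold change over UNT was 3.93 (SE 0.19) for *Krt20*, 3.36 for *Krt19*, 2.64 for *Krt18*, 2.56 for *Krt80*, 1.72 for *Krt23*, 1.59 for *Krt8*, 1.52 for *Krt7* and 1.09 (SE 0.20, edgeR adjusted p = 6.656e-06) for *Krt5*. After treatment *Krt20* was thus the member farthest above UNT. Every RGLS4326 mouse was above every UNT mouse for 7 of the 8, which held for 20.7% of tested genes, and for *Krt5* 9 of 11 mice were above the highest UNT mouse. *Krt5* was not called in set 2 alone (0.52, edgeR adjusted p = 0.12). When the no-gene share of reads was a term of the fit, all 8 stayed called, from 3.65 for *Krt20* down to 1.04 for *Krt7* and 0.53 (edgeR adjusted p = 0.0224) for *Krt5*.

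Pooled over groups, the pairs without *Krt20* had higher correlations than the pairs with it. Over the 34 mice with group means removed, Pearson r of log2(CPM + 1) over the 21 pairs without *Krt20* ran from 0.49 to 0.94 (median 0.77). The closest pairs were *Krt18* with *Krt19* (0.936) and *Krt8* with *Krt19* (0.914), and *Krt8* with *Krt18* was at 0.91. The 7 pairs with *Krt20* ran from 0.00 (*Krt80*) to 0.25 (*Krt5*), with a median of 0.17. All pairs share libraries and depth, and these values are a description. Single groups differed from the pooled picture, since *Krt80* had an r below 0 with 5 other keratins in UNT mice and *Krt20* had an r of 0.25 to 0.79 with the others in RGLS4326 mice.

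The r of *Krt20* had opposite signs in the cystic groups. In the 11 PBS mice its r with the other keratins was -0.61 (*Krt80*) to -0.25 (*Krt8*), and in the 11 RGLS4326 mice 0.25 (*Krt23*) to 0.79 (*Krt5*). With the means of the library sets removed within each group, r was -0.59 (*Krt80*) to -0.07 (*Krt8*) in PBS and -0.23 (*Krt23*) to 0.54 (*Krt5*) in RGLS4326 mice, so the relations in RGLS4326 mice rested in part on differences between sets. PBS replicate 7 had the highest *Krt20* (64.4 CPM) and the lowest *Krt18* (258.9 CPM) of its group. Over these 14 relations none passed the adjustment. The nearest were *Krt5* in RGLS4326 mice (r = 0.79, permutation p = 0.00413, adjusted p = 0.0578; Spearman rho 0.65, permutation p = 0.0337, adjusted p = 0.362) and *Krt80* in PBS mice (r = -0.61, permutation p = 0.0481, adjusted p = 0.134; rho -0.46, permutation p = 0.155, adjusted p = 0.362). Without the 2 mice farthest from the median of *Krt20*, r was 0.63 and -0.41 (n = 9).

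**Figure D5:**
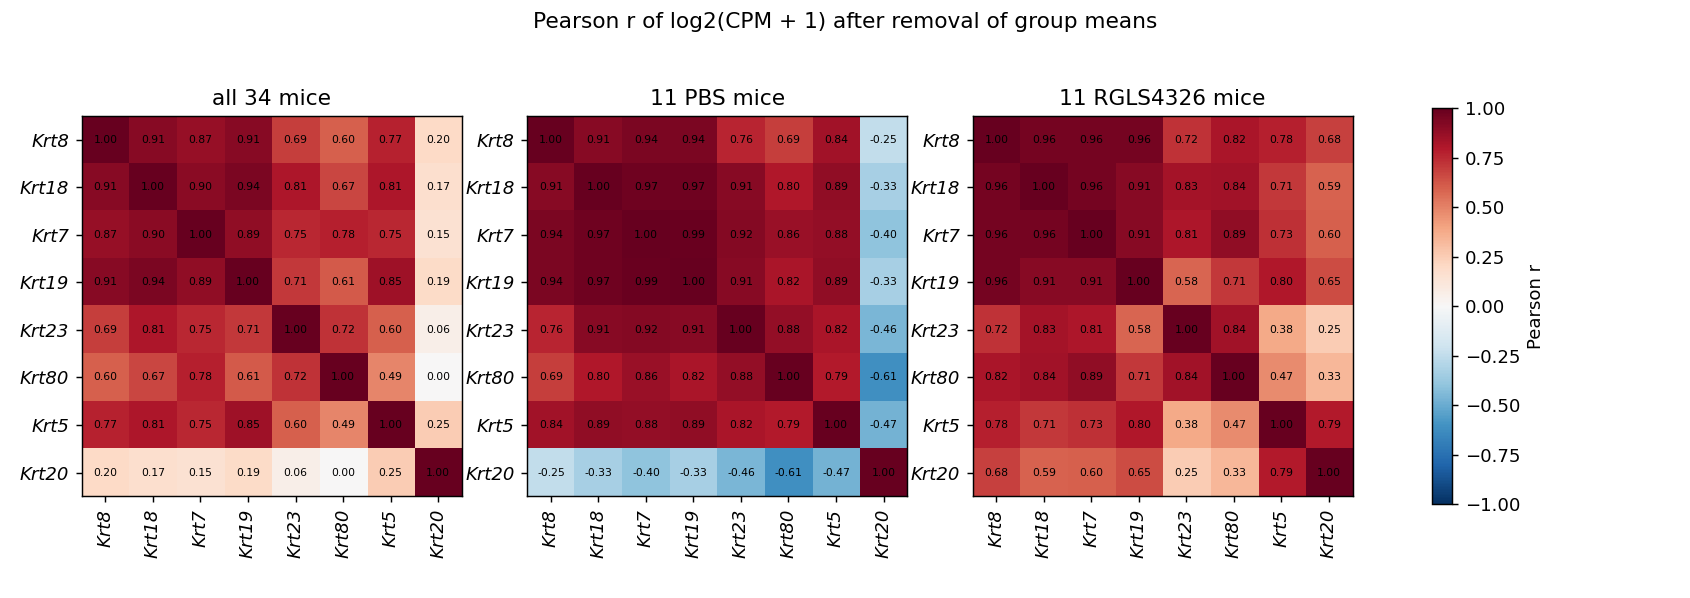
Pearson r of log2(CPM + 1) between the keratins after removal of group means, over all 34 mice, the 11 PBS mice and the 11 RGLS4326 mice, from -1 (blue) to 1 (red). The *Krt20* row stands apart over all mice (0.00 to 0.25) and in PBS mice, where it is below 0 with every other keratin. In RGLS4326 mice it is at 0.25 to 0.79, which overlaps the pairs without *Krt20* (0.38 to 0.96).

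The tested genes most like each keratin in this measure (Pearson r over 34 mice, group means removed) differed between members. *Krt8* was nearest to *Cldn4* (0.915), a tight junction claudin, *Krt19* (0.914) and *Gnb1* (0.914). *Krt18* was nearest to *S100a11* (0.958), *Clic1* (0.945) and *S100a6* (0.945), and *Krt19* to *Krt18* (0.936), *Sdc1* (0.928) and *Tmbim1* (0.927). *Krt7* was nearest to *Sh3bgrl3* (0.930), *Pkm* (0.922) and *Capns1* (0.911). Among the genes nearest to *Krt23* were *Blnk* (0.894) and *Tmem45b* (0.876), and *Krt80* was nearest to *AI661453* (0.899), *Anxa11* (0.888) and *Plet1* (0.880). *Krt5* was nearest to the basal keratin *Krt15* (0.881), the uroplakin *Upk3a* (0.857) and *S100a6* (0.856). *Krt20* had no neighbour as close as these, with *Mmp24* (0.70), *Cldn15* (0.662) and *Ly6c1* (0.655) first.

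Of the 44 other keratin genes in the tables, 8 were tested and 36 were too low. *Krt4*, *Krt12*, *Krt14*, *Krt16* and *Krt17* passed the filter on low counts only through the cystic groups and so had to be higher there, which makes their calls no support. The other 3 passed in UNT libraries alone, and of these *Krt15* was called higher and *Krt10* (-0.99) and *Krt222* (-1.73) lower in PBS vs UNT. *Krt17* and *Krt4* were almost absent from normal kidney, *Krt17* at 0.0287 ± 0.0397 CPM (0 counts in 6 of 12 UNT libraries) against 13.8 ± 6.33 CPM in PBS, and *Krt4* at 0.181 ± 0.0928 against 12.5 ± 6.94 CPM. *Krt14* and *Krt15*, keratins of basal cells, were at 0.435 ± 0.196 and 3.42 ± 1.05 CPM among UNT and at 9.80 ± 4.65 and 18.7 ± 8.71 CPM in PBS mice. With RGLS4326, 4 of the 8 were called lower (18.4% of all tested genes), *Krt4* (-1.34, SE 0.23, edgeR adjusted p = 0.0006856), *Krt14* (-1.04), *Krt15* (-0.997) and *Krt17* (-0.97). *Krt10* was at 0.02, and *Krt12*, *Krt16* and *Krt222* were not called.

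Keratin filaments are tied to desmosomes and hemidesmosomes by plakins, plakophilins and integrins. Of 18 such anchor and linker genes, 14 were called higher (43.1% of all tested genes) and 3 lower (38.9%) in PBS vs UNT, with a median log2 fold change of 0.92 against 0.04 over all genes. *Pkp1*, 1 of the 14, passed the filter only through the cystic groups. The plakin *Plec* was at 107.7 ± 16.1 CPM among UNT and 367.5 ± 65.9 CPM in PBS, and plakoglobin (*Jup*) at 177.0 ± 17.9 and 335.2 ± 45.3 CPM, while *Dst* (521.2 ± 104.0 and 275.7 ± 73.6 CPM) and *Pkp4* (418.1 ± 54.6 and 241.8 ± 27.1 CPM) fell. With RGLS4326, 8 were called lower (18.4% of all tested genes) and 1 higher (15.2%), with a median of -0.19. *Plec* fell by 0.31 and *Jup* by 0.29 on the log2 scale, and *Dst* was the gene that rose (0.36).

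The other intermediate filament genes, among them vimentin (*Vim*, of mesenchymal and dedifferentiated cells) and the lamins of the nucleus, were all called higher in PBS vs UNT (9 of 9, median 1.30), beside 43.1% of all tested genes, though *Gfap* and *Prph* passed the filter only through the cystic groups. *Vim* was at 87.0 ± 13.1 CPM in UNT, 411.2 ± 44.3 in PBS and 356.4 ± 42.8 in RGLS4326 mice. With RGLS4326, 3 of the 9 were called lower (median -0.21; 18.4% of all genes), *Vim* (-0.21), *Lmna* (-0.35) and *Des* (-0.33). Of 12 epithelial transcription factors known to act on keratin or epithelial genes, 11 were called higher and *Tfap2b* lower in PBS vs UNT (median 1.22; 43.1% of all genes higher), and 6 were called lower with RGLS4326 (median -0.28; 18.4% of all genes). *Elf3* was at 29.0 ± 7.78 CPM in UNT, 220.4 ± 62.7 in PBS and 133.8 ± 30.5 in RGLS4326 mice, and *Ehf* at 86.6 ± 10.2, 129.0 ± 15.7 and 123.8 ± 16.9 CPM. The summed level of these factors had an r of 0.03 with *Krt20* and of 0.59 (*Krt5*) to 0.82 (*Krt18*) with the other keratins (34 mice, group means removed). Of 8 partners of keratins in stress responses, 3 were called higher and 1 lower in PBS vs UNT (median 0.23). These shares are no larger than the 43.1% and 38.9% of all genes. With RGLS4326, 4 of the 8 were called lower (median -0.27), beside 18.4% of all genes.

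Markers of other cells were also at different levels in the groups. For the counts that follow, 43.1% of all tested genes were called higher in PBS vs UNT and 18.4% lower with RGLS4326. Of 7 collecting duct principal cell markers, 6 were called higher in PBS vs UNT and 4 lower with RGLS4326, with sums of 1358 to 1636 CPM in UNT, 1710 to 3181 in PBS and 1202 to 2925 in RGLS4326 mice. All 5 urothelial markers were called higher and then lower, with sums of 44.9 to 72.2, 64.1 to 197.2 and 45.8 to 92.7 CPM, and none was at 0 in a group. Of 8 stratified or basal markers 5 were tested, and *Krt14* and *Krt17* passed the filter only through the cystic groups. The sums over the 8 were 18 to 30.8, 68.0 to 185.2 and 45.3 to 89.9 CPM, with *Krt6a* at 0 in UNT libraries, and 4 of the 5 were called lower with RGLS4326. The 4 mesothelial markers did not move as 1 group. *Msln*, *Upk3b* and *Lrrn4* were called higher in PBS vs UNT (*Lrrn4* passing the filter only through the cystic groups) and lower with RGLS4326, while *Wt1* was called lower (-0.55) and then higher (0.27), and the sums were 30.5 to 44.1, 138.8 to 410.8 and 112.8 to 176.6 CPM.

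The r of the keratins with these marker sums, with group means removed over the 34 mice, differed in order between the lists. With the principal cell sum it was 0.73 for *Krt80*, 0.66 for *Krt23*, 0.59 for *Krt7*, 0.51 for *Krt18*, 0.42 for *Krt19*, 0.41 for *Krt8*, 0.30 for *Krt5* and 0.13 for *Krt20*. The r with the stratified sum, which holds keratins itself, was 0.92 for *Krt5*, 0.85 for *Krt18*, 0.84 for *Krt19*, 0.77 for *Krt8*, 0.75 for *Krt7*, 0.65 for *Krt23*, 0.45 for *Krt80* and 0.24 for *Krt20*. With the mesothelial sum it was 0.65 (*Krt5*) to 0.83 (*Krt19*) for 7 keratins and -0.02 for *Krt20*, and with the urothelial sum 0.38 (*Krt8*) to 0.66 (*Krt5*) and 0.07. The part of these cells in the keratin levels was not tested.

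Injured tubule markers were all called higher in PBS vs UNT (5 of 5, median 3.31; 43.1% of all genes), of which *Havcr1* passed the filter only through the cystic groups, with sums of 1723 to 3077 CPM in UNT, 14233 to 21423 in PBS and 10390 to 23819 in RGLS4326 mice. With RGLS4326, 2 of the 5, *Lcn2* (-0.80) and *Clu* (-0.71), were called lower, beside 18.4% of all genes. *Havcr1* (-0.13), *Vcam1* (0.01) and *Spp1* (0.17) were not called, and the median was -0.13. The sum is mostly *Spp1*, so r was also taken for each marker (34 mice, group means removed). *Krt20* was at 0.51 with *Spp1*, 0.39 with *Havcr1* and 0.40 with *Vcam1*, while the other 7 keratins ran from -0.30 to -0.02, from -0.25 to 0.28 and from -0.10 to 0.13. With *Lcn2* and *Clu*, the markers that were lower after RGLS4326, the order was the other way, with 0.29 and 0.23 for *Krt20* and 0.61 to 0.89 and 0.46 to 0.80 for the other 7. All 5 proximal tubule markers were called lower in PBS vs UNT (median -2.68; 38.9% of all genes) and 4 of the 5 higher with RGLS4326 (median 0.64; 15.2% of all genes). Of 4 leukocyte markers 3 were tested (*Cd3e* passing the filter only through the cystic groups) and were called higher in PBS vs UNT (43.1% of all genes). With RGLS4326, *Cd68* (-0.80) and *Cd3e* (-0.74) were called lower (18.4% of all genes) and *Ptprc* was at 0.25 (adjusted p = 0.0849 in edgeR), with sums over the tested genes of 11.7 to 20.3, 56.3 to 128.8 and 55.3 to 102.0 CPM.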

How the data were processed

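Kidney polyadenylated RNA of 34 mice was sequenced by the authors as stranded paired-end libraries. Per the labels and the study's methods, reads were trimmed with Trim Galore, mapped with STAR to GRCm38 and counted per gene with HTSeq (version 0.6.1 in the submitters' processing notes, which also name FastQC 0.11.2, SAMtools 1.1 and Picard 1.119). The annotation and strand setting are not given in the sources used here. The deposited values are raw read counts, 1 table per mouse. Counter totals that name no gene (5.82% to 14.9% of reads in no gene, of reads in genes, in no gene or ambiguous) were left out of library sizes.

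Counts were scaled by TMM, filtered with filterByExpr and fitted with edgeR 4.0.16 (R 4.3.3) quasi-likelihood tests, all 34 libraries in 1 fit of 3 groups, two-sided, with Benjamini-Hochberg adjustment over 15644 genes and calls at 0.05. Alternatives were other size factors, no filter, the 2 groups compared alone, a replicate block, library sets, the no-gene share as a covariate, DESeq2 1.42.0 and leaving out each library. The tests were tested on simulated data. Permutation tests were two-sided with 100000 resamples (scipy 1.17.1, numpy 2.4.6, Python 3.11.15). Gene models were GENCODE on GRCm38, and promoter and miRNA sequences RefSeq (GRCm38.p6).

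The members and gene lists were chosen with earlier results of these data known. Named genes were the 8 members, the 5 most abundant other keratins and any other keratin called with treatment, up to 4 list genes of highest mean CPM, and the 3 nearest genes of each member. A few items that this rule names are not reported here. *Des*, *Pkp1*, *Gfap*, *Prph*, *Krt12*, *Krt16*, *Krt222*, *Krt6a* and *Havcr1* were named outside this rule after their values were seen. The ratios and correlation tests of *Krt20*, and its r with library-set means removed or with single markers, were also chosen after its values were seen.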

Additional observations from a re-analysis of the deposited data

How the results depend on the processing

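For PBS vs UNT, all 8 keratins were called higher under every alternative run, but with the no-gene share as a covariate the log2 fold changes fell to 3.58 (*Krt19*), 3.54 (*Krt20*), 2.66 (*Krt18*), 2.42 (*Krt80*), 1.54 (*Krt8*), 1.503 (*Krt7*), 1.43 (*Krt23*) and 1.10 (*Krt5*), and for RGLS4326 vs UNT all 8 except *Krt5* in library set 2 alone. For RGLS4326 vs PBS, library set 1 alone called 0 keratins and 32 genes in all, set 3 alone 0 keratins and 0 genes, and the no-gene share as a covariate 1 keratin and 143 genes. The sets alone have fewer samples. For the covariate the cause was not tested. The 7 lowered keratins stayed below 0 in all of these fits. *Krt20* turned above 0 in set 1 alone (0.59), in set 3 alone (0.088) and with the covariate (0.11), and over the 34 fits that leave out 1 library it ran from -0.080 to 0.099. Leaving out 1 library gave 6 or 7 keratins and 4010 to 6198 genes called for RGLS4326 vs PBS.

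Without division by length, the log2 ratio of *Krt8* to *Krt18* was 1.75, 0.54 and 0.70 in UNT, PBS and RGLS4326 mice, and per coding length (added after the data were seen) 1.54, 0.32 and 0.49. The type II to type I ratio was 2.43, 1.05 and 1.18 without division and 2.26, 0.87 and 1.01 per coding length. The median r over the 28 pairs of keratins was 0.72 over all mice and 0.85 in PBS mice alone.

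The groups share replicate numbers in the labels, and the main fit did not treat equal numbers as pairs. The r of same-numbered deviations was above 0.1 in 2 of 11 pairs of PBS and UNT. It was above 0.1 in 5 of 11 pairs of RGLS4326 and PBS and 3 of 11 of RGLS4326 and UNT. Differently numbered mice were not compared, so this check cannot exclude pairing. With the replicate block, 8, 7 and 8 keratins were called in PBS vs UNT, RGLS4326 vs PBS and RGLS4326 vs UNT, with 12780, 5089 and 12155 genes in all.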

Other observations

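Pearson r of log2(CPM + 1) between the keratins over the 21 pairs without *Krt20* ran from -0.36 to 0.88 (median 0.55) among the 12 UNT mice, against 0.69 to 0.99 (median 0.89) in PBS and 0.38 to 0.96 (median 0.82) in RGLS4326 mice. The 7 pairs with *Krt20* ran from 0.17 to 0.62 in UNT mice. The difference in r between groups was not tested.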
